A study of Mus musculus with 8 samples.

Results

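Interleukin-18 (IL-18), its receptor chains and 7 further genes of the IL-1 family were followed in peritoneal B-1a cells that lacked the chromatin factor PTIP, the product of Paxip1, and in control B-1a cells. The 10 genes were Il18 and Il33 (ligands), Il18r1, Il18rap, Il1r1, Il1r2, Il1rap and Il1rl1 (receptor chains), and Il18bp and Il1rn (soluble inhibitors). They were found by their symbol in the array's annotation, and each gene's probe set was selected on measured values, as the brightest on average across both genotypes' 8 arrays. Of the 10 genes, 9 were measured among 22180 genes in all; Il1rl1, the receptor for IL-33, had no probe set with its symbol alone and was not analysed here. The list was drawn up with earlier results of these data known, the fall of Il18 and the rise of Il18r1 among them. The genotype differences of the 9 genes are therefore a description, and their p-values give each gene's place in the fit over all genes and no independent support.

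B-1a cells are B cells of the body cavities that renew themselves and make natural antibodies. They were sorted from peritoneal lavage fluid of mice 5 weeks old, and their RNA was hybridised to Affymetrix arrays, 1 array per pool. The KO group was PTIPflox/flox, with 29 mice in 4 pools, and the control group was PTIP+/+, with 22 mice in 4 pools, and both groups carried 1 copy of the same Cre allele, which is active in the B lineage. That allele deletes floxed genes in B lineage cells, so T cells, NK cells or macrophages that pass the sort are not its targets. Neither the mice per pool and their sex nor the sorting gates were stated in the sources used here.

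IL-18 is made as an inactive precursor that caspase-1 cleaves inside inflammasomes. The mature cytokine binds IL-18Rα (Il18r1), which pairs with IL-18Rβ (Il18rap) and signals through MyD88 and the IRAK kinases to NF-κB, and IL-18BP (Il18bp) captures it outside the cell. IL-18 receptors are best known on NK cells and T cells, where IL-18 acts with IL-12 to induce interferon-γ. The IL-1 and IL-33 receptors use the same signalling domain and share the accessory chain Il1rap, while Il1r2 is a decoy receptor and Il1rn an antagonist of IL-1.

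The promoters of the 3 IL-18 system genes with the largest differences are shown because these genes moved in different directions. Each is the RefSeq window (GRCm38.p6, plus strand) from 250 bases before to 50 bases after the annotated start site, at chr9:50554450-50554749 for Il18, chr1:40465302-40465601 for Il18r1 and chr1:40515112-40515411 for Il18rap. Capitals mark matches to the octamer ATGCAAAT, known as a motif of B cell promoters, or to GAGGAA, a core of PU.1 sites, on either strand.
Il18: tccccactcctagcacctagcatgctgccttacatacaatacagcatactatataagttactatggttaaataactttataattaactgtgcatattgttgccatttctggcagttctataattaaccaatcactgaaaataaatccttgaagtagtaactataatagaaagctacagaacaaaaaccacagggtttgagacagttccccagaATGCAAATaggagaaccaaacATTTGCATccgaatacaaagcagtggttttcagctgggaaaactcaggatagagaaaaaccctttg
Il18r1: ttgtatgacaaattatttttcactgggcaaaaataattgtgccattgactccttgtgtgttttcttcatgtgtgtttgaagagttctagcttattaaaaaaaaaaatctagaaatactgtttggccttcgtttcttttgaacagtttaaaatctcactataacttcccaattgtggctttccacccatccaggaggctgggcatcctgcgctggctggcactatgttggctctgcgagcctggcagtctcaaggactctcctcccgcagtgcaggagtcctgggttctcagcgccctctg
Il18rap: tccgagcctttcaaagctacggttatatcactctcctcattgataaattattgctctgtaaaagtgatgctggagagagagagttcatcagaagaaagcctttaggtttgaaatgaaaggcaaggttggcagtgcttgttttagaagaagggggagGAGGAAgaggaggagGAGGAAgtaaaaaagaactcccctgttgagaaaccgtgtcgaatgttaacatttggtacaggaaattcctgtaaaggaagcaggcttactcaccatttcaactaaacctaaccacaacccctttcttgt

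The Il18 window, with 36.7% G and C, held 2 octamers, 1 on each strand, whose leftmost bases lay at -37 and -16 from the start site. Of 32851 promoter windows of the same length, 1.74% held at least 1 octamer and 0.107% held 2 or more. The Il18rap window held 2 copies of GAGGAA, at -94 and -79; at least 1 copy was found in 28.3% of all windows and 2 or more in 4.82%. The Il18r1 window shown held none of the 5 motifs searched, which were these and TGANTCA (an AP-1 site, in 7.81% of windows), AGGTGTGA (a T-box site, in 1.28%) and AGATAA (for GATA factors, in 11.2%), each on both strands and with overlapping matches between motifs counted. RefSeq listed 3 Il18r1 windows, and the one starting farthest downstream held 1 GAGGAA. Neither motif was particular to the genes shown. An octamer was also found in windows of Il1rn, Il33 and Il1rl1, and GAGGAA in windows of Il33 and Il1rl1. Of these, Il1rn and Il33 were measured and differed by -0.07 and -0.05 between the genotypes. The motifs were chosen after the sequences were seen, and a match is a description of letters, not of binding.

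Paxip1 checked the labels: it lay at 4.66, 4.48, 4.79 and 3.58 in KO and at 6.87, 7.13, 7.16 and 7.03 in control on the log2 scale, lower by 2.67 (SE 0.22). All values here are log2 signals normalized by RMA, which sets every array to a shared distribution, so a difference is read against the rest of the array and a level is not compared between genes. The B cell genes Cd79a and Ms4a1 differed by -0.04 and 0.02 (10.77 ± 0.25 against 10.82 ± 0.03, and 11.10 ± 0.06 against 11.08 ± 0.03, SD, n = 4 pools each). Of 9 measured pan-B markers, 1 was called lower (Cd22, by 0.59, limma, adjusted p = 0.017). Of these 9 differences 3 were above 0, with a median of -0.02. The B-1a marker Cd5 differed by 0.04, less than its spread between pools (7.48 ± 0.19 against 7.44 ± 0.15). Of 8 measured genes on a B-1a marker list, however, 4 were called lower, among them Cd300lf and Itgam, 1 of the 8 differences was above 0, and their median was -0.56. The array medians lay between 3.68 and 3.74. In limma, with Benjamini-Hochberg adjustment over all genes and a gene termed called at adjusted p under 0.05, 797 of 22180 genes (3.59%) were called, 331 higher (1.49%) and 466 lower (2.10%) in KO.

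T and NK cell RNA differed between the pools. The mean of 17 measured T cell markers (of 20 listed) was 6.98, 6.68, 5.12 and 5.59 in the KO pools, listed as pools 1 to 4 here and throughout, and 5.40, 5.51, 4.84 and 4.62 in the control pools. For 14 measured NK markers (of 18 listed) the KO pools averaged 5.26, 5.03, 4.06 and 4.40 and the control pools 4.04, 4.13, 3.72 and 3.47. KO pools 1 and 2 thus stood highest in both. Of the T cell markers 16 of 17 were higher in KO on average, but none was called in limma (9 had an unadjusted p under 0.05), and 1 of 17 lay below the array median. Of the NK markers 13 of 14 were higher on average, 2 were called (Klrb1c by 0.73 and Klrd1 by 1.83), and 6 of 14 lay below the array median. Over all genes, 1.49% were called higher. Klrb1c was lower in KO pool 2 (4.16) than in KO pool 3 (4.43), unlike the mean of the NK list. In such bulk samples, more cells of a type and more RNA per cell cannot be told apart.

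Among the 9 measured members, Il18 was lower in KO and Il18r1 was higher, and the other 7 were not called. The called shares were 1 of 9 higher, against 1.49% of all genes, and 1 of 9 lower, against 2.10%; nothing is read from them, since the list was drawn up with these results known. The KO and control pools did not overlap for 4 members (Il18, Il18r1, Il18bp and Il1rap), as for 10.5% of all genes tested. Relative to all probe sets, 6 of the 9 had a mean at or above the median, and Il1r1, Il1r2 and Il33 lay below it. That mean spans both genotypes. In control, Il18rap averaged 3.50, under the median of 3.71, and Il18r1 lay under it in pools 3 and 4 (3.58 and 3.29). Log2 RMA values flatten near background, so any difference or slope in Il1r1, Il1r2, Il33, Il18rap or Il18r1 may be understated.

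**Figure D1:**
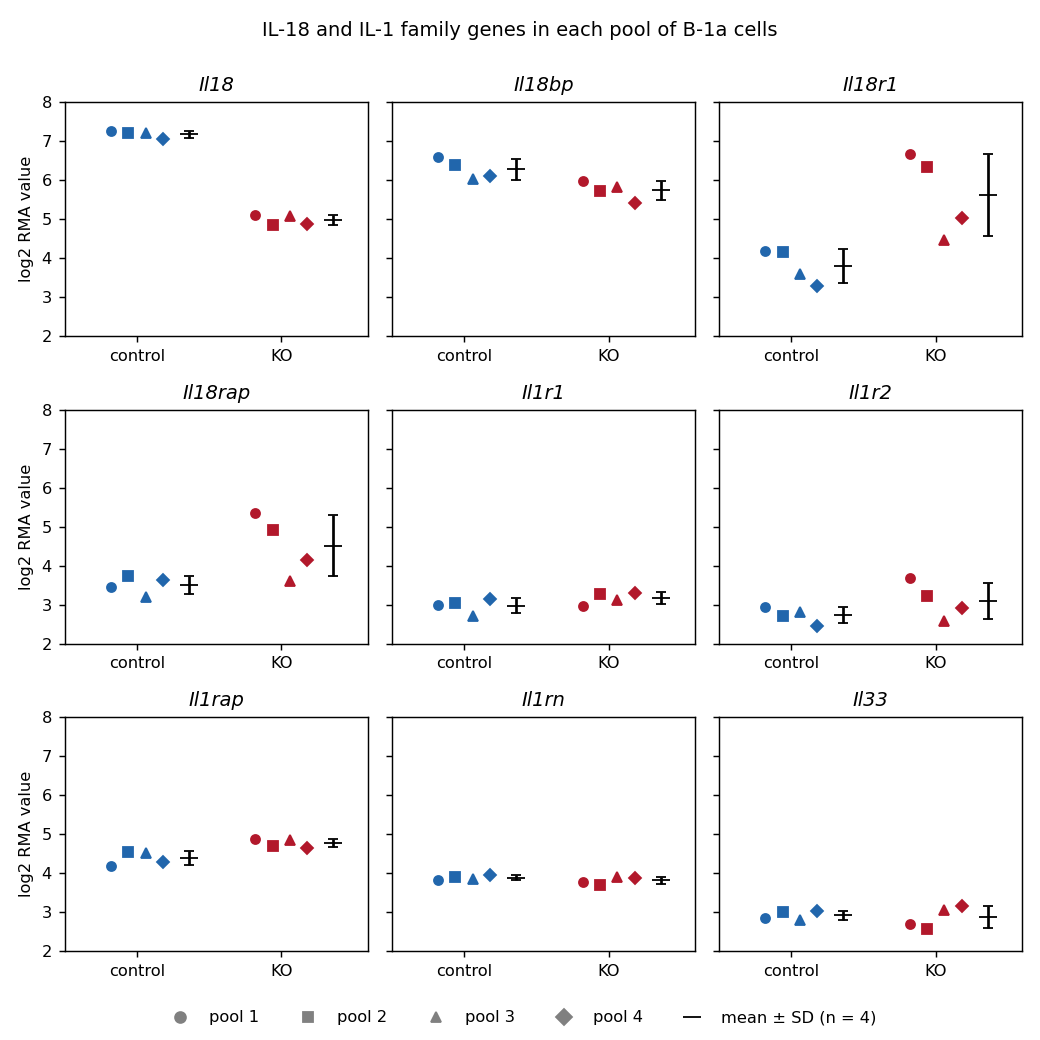
Log2 RMA value (vertical axis) of the 9 measured genes in each of the 4 control pools (blue) and 4 KO pools (red), with the mean and SD of each group in black. The KO pools of Il18 lie between 4.84 and 5.10, under every control pool, and the KO pools of Il18r1 spread from 4.45 to 6.66.

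Il18, the ligand, was 4.60-fold lower in KO (95% confidence interval 4.0 to 5.3). Its values were 5.10, 4.84, 5.07 and 4.88 in KO and 7.24, 7.21, 7.20 and 7.04 in control. Every KO pool lay below every control pool, and the gap of 1.94 between the nearest pools was far wider than the range within KO (0.26) or within control (0.20). The means were 4.97 ± 0.13 and 7.17 ± 0.09 (SD, n = 4 pools each), a difference of -2.20 (SE 0.09, limma, adjusted p = 1.04e-06). The exact permutation test (two-sided, all 70 ways to assign 8 arrays) gave p = 0.0286, its lowest possible value. Any gene whose pools do not overlap, as for 10.5% of all genes, gives this value, so it adds nothing to the lack of overlap. KO pools 1 and 2, with the highest T and NK marker means, had Il18 values on either side of KO pools 3 and 4.

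Macrophages are a known source of IL-18, and their markers were set beside it. The mean of 11 measured macrophage and monocyte markers ranged from 4.78 to 5.23 in KO and from 4.67 to 5.49 in control. Of these 11 genes, 1 was called (Cd68, lower by 0.56, adjusted p = 0.0275 in limma) and 4 lay below the array median. Over all genes, 2.10% were called lower. Adgre1, which encodes F4/80, averaged 4.27 in KO and 5.04 in control, a difference of -0.76 that was not called (adjusted p = 0.122, limma). Other genes of the list went the other way, 5 of the 11 being higher on average in KO, among them the monocyte chemokine receptor gene Ccr2 by 1.07 (limma, adjusted p = 0.223), and the median difference of the list was -0.09. With the macrophage marker mean of each array as a term in the fit, the Il18 difference was -2.19 (limma, adjusted p = 4.41e-06). This fit was chosen after the values were seen. Ccr2 rose by 1.09 per log2 unit of the T cell marker mean at a fixed genotype (limma, adjusted p = 0.000125). The macrophage mean is therefore not a measure of macrophage RNA alone, and the cell source of the Il18 signal was not tested.

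Il33, the ligand of ST2 and an alarmin of barrier and stromal cells, was dim in all pools. It lay at 2.71, 2.56, 3.07 and 3.17 in KO and at 2.85, 3.0, 2.81 and 3.03 in control. The groups overlapped, with KO pools holding both the lowest and the highest values, and the difference of -0.05 had a 95% confidence interval from -0.34 to 0.25 (limma, adjusted p = 0.928). Mesothelial and stromal markers, a possible source of IL-33, were below the array median for 7 of 8 genes.

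Il18r1, the ligand-binding chain of the IL-18 receptor, was 3.52-fold higher in KO on average (95% confidence interval 1.84 to 6.74). It was measured at 6.66, 6.32, 4.45 and 5.02 in KO and at 4.18, 4.14, 3.58 and 3.29 in control. The groups did not overlap, yet the gap was 0.27, the KO range 2.21, and KO pools 1 and 2 stood apart from KO pools 3 and 4. The exact permutation p of 0.0286, the smallest possible, again follows from the lack of overlap alone. The means were 5.61 ± 1.05 and 3.79 ± 0.44 (SD, n = 4 pools each), a difference of 1.82 (SE 0.42, limma, adjusted p = 0.0409). The call was lost when any 1 pool other than KO pool 3 was left out (limma, adjusted p from 0.0506 to 0.114, against 0.00877 without KO pool 3). Without KO pools 1 and 2 together the difference was 0.94 (limma, adjusted p = 0.156).

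Il18rap, the signalling chain of the same receptor, had the same order of the KO pools. Its values were 5.35, 4.92, 3.61 and 4.14 in KO and 3.44, 3.74, 3.19 and 3.64 in control. KO pool 3 lay below control pools 2 and 4, so the groups overlapped, and KO pools 1 and 2 were again the highest. The difference of 1.0 (SE 0.31, 95% confidence interval 0.32 to 1.69) was not called (limma, adjusted p = 0.124). It was called only when KO pool 3 was left out, at 1.30 (limma, adjusted p = 0.0179), and without KO pools 1 and 2 it was 0.37 (limma, adjusted p = 0.447). Over the 8 arrays Il18rap and Il18r1 had a Pearson's r of 0.95, or 0.90 with each genotype's mean removed, given as a description of arrays that share the pools' cell makeup.

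The variation of each member with T and NK cell RNA was measured as a slope, the change in log2 value per log2 unit of the marker mean at a fixed genotype. Il18r1 had a slope of 1.15 on the T cell marker mean (SE 0.07, 95% confidence interval 1.0 to 1.30, limma, adjusted p = 6.14e-05). On the NK marker mean its slope was 1.79 (SE 0.12, 95% confidence interval 1.52 to 2.07, limma, adjusted p = 0.000156). It was the member called on each list, 1 of 9, where 0.203% of the genes outside the T cell list and 0.244% of those outside the NK list had called positive slopes. Nothing is read from this share, since the members and lists were chosen with earlier results of these data known. The slopes and their p-values are likewise a description. The marker means of both lists moved together across the pools, so the slopes on T and on NK RNA cannot be told apart. Omitting KO pools 1 and 2 left the Il18r1 slopes at 1.04 and 1.48, neither of them called in a fit over 6 arrays (limma, adjusted p = 0.262 and 0.27).

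The genotype difference of Il18r1 at a fixed T cell marker mean was 0.67 (SE 0.11, limma, adjusted p = 0.015). At a fixed NK marker mean it was 0.30 (SE 0.14, limma, adjusted p = 0.452). Both were smaller than the 1.82 of the fit with genotype alone. The part of T and NK cells in the rise of Il18r1 was not tested beyond these fits, in which the marker means themselves differed between the genotypes.

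Il18rap had slopes of 0.74 on the T cell mean (SE 0.13, limma, adjusted p = 0.063) and 1.13 on the NK mean (SE 0.22, limma, adjusted p = 0.139), and its genotype difference was 0.26 and 0.05 at a fixed marker mean. Il18 had slopes of 0.02 (SE 0.08, 95% confidence interval -0.15 to 0.20) and 0.05 (SE 0.12), the former turning to -0.00222 when array medians were subtracted. Its genotype difference was -2.23 (SE 0.12) with the T cell mean and -2.24 with the NK mean, and both were called (limma, adjusted p = 2.83e-05 and 0.000135). The ligand's difference was thus as large with either marker mean in the fit, and those of both receptor chains were smaller. Il33 had negative slopes, of -0.23 on the T cell mean (95% confidence interval -0.43 to -0.04) and -0.36 on the NK mean (-0.67 to -0.04). Neither Il33 slope was called (limma, adjusted p = 0.639 and 0.664). The slopes on the T cell and NK means were 0.03 and 0.05 for Il1rap and -0.09 and -0.13 for Il1rn, none called.

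**Figure D2:**
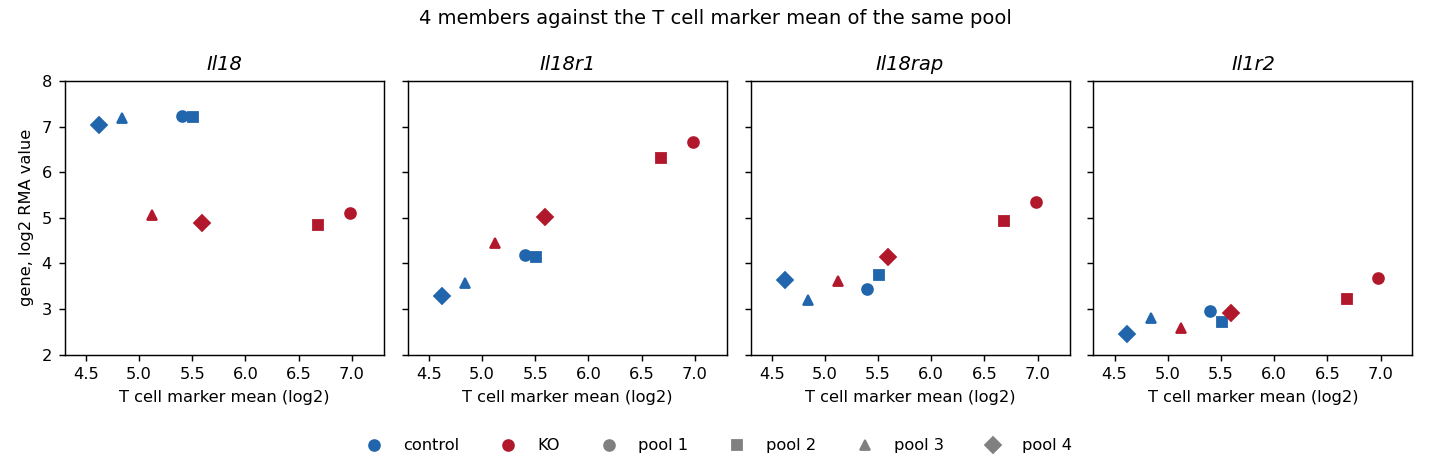
Log2 RMA value of Il18, Il18r1, Il18rap and Il1r2 (vertical axes) against the mean log2 value of 17 T cell markers in the same pool (horizontal axis), control in blue and KO in red, with 1 symbol per pool number. Il18r1 climbs with the marker mean from 3.29 in control pool 4 to 6.66 in KO pool 1, while Il18 forms 2 level groups.

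Il1r2, the decoy receptor for IL-1, was dim, with its KO pools in the same order. It lay at 3.68, 3.22, 2.58 and 2.92 in KO and at 2.95, 2.72, 2.81 and 2.46 in control. The groups overlapped, with KO pool 3 under 3 of the 4 control pools, and the difference of 0.36 (95% confidence interval -0.08 to 0.81) was not called (limma, adjusted p = 0.442). Its slopes were 0.47 on the T cell mean (SE 0.09, limma, adjusted p = 0.129) and 0.75 on the NK mean (SE 0.14, limma, adjusted p = 0.0926). At a fixed marker mean its difference turned to -0.10 and -0.27, neither called. Its Pearson's r with Il18r1 over the 8 arrays was 0.89.

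Il1rap, the accessory chain shared by the IL-1 and IL-33 receptors, was read by 3 probe sets, of which the kept one gave 4.88, 4.71, 4.84 and 4.65 in KO and 4.19, 4.55, 4.51 and 4.29 in control. All KO pools were above all control pools, by a gap of 0.10, and the difference of 0.38 (SE 0.10, 95% confidence interval 0.16 to 0.61) was not called (limma, adjusted p = 0.0717). The other two Il1rap probe sets were dim, between 2.29 and 2.64, and differed by 0.03 and -0.07, so the probe sets did not show the same difference. With the mean of the 3 probe sets the difference was 0.12, and the call was gained when dim genes were left out of the test (limma, adjusted p = 0.0418) or quantile normalization was repeated (limma, adjusted p = 0.0433).

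Il1r1, the signalling receptor for IL-1, was dim in both genotypes. Its values were 2.96, 3.28, 3.12 and 3.31 in KO and 2.99, 3.04, 2.71 and 3.15 in control, and the groups overlapped. The difference was 0.19 with a 95% confidence interval from -0.06 to 0.45 (limma, adjusted p = 0.479). Its slopes on the T cell and NK means were -0.05 (SE 0.10) and -0.09 (SE 0.15), smaller than their errors.

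Il18bp, the secreted decoy that neutralises IL-18, lay at 5.98, 5.72, 5.81 and 5.41 in KO and at 6.58, 6.38, 6.02 and 6.09 in control. The KO pools were all below the control pools, but by a gap of only 0.04 between KO pool 1 and control pool 3. The difference of -0.54 (SE 0.15, 95% confidence interval -0.86 to -0.21) was not called (limma, adjusted p = 0.081). With the T cell marker mean in the fit it was -0.74 (limma, adjusted p = 0.077), and its slope on that mean was 0.20 (SE 0.11, limma, adjusted p = 0.761).

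Il1rn, the IL-1 receptor antagonist, varied little, at 3.78, 3.70, 3.90 and 3.88 in KO and 3.82, 3.91, 3.85 and 3.96 in control. The groups overlapped and the difference was -0.07 (95% confidence interval -0.25 to 0.11, limma, adjusted p = 0.781). No pool stood apart from the others.

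**Figure D3:**
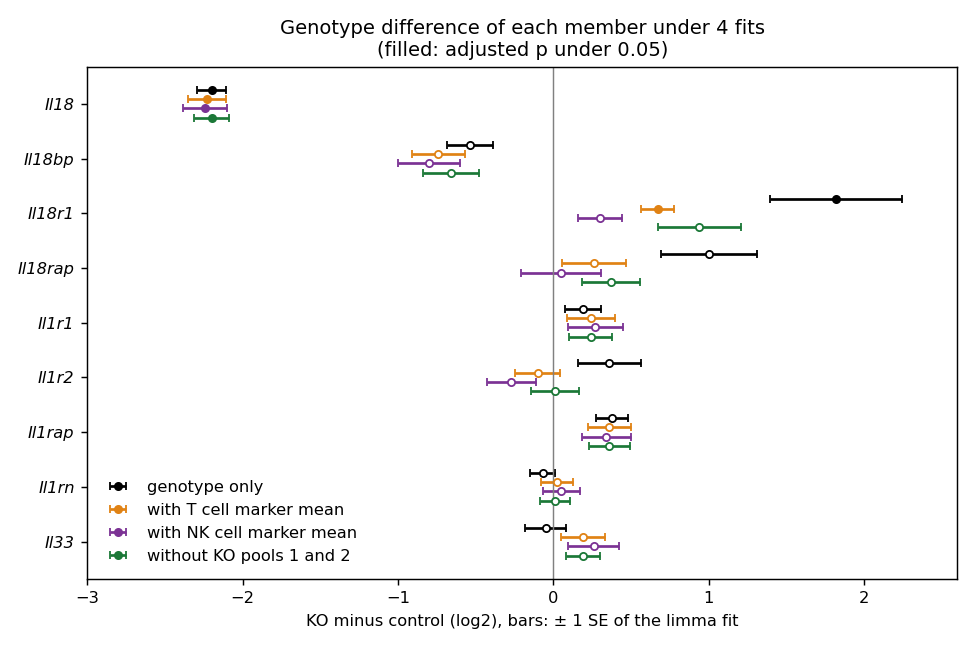
KO minus control on the log2 scale (horizontal axis, bars ± 1 SE of the limma fit) of each measured gene in 4 fits: genotype only (black), with the T cell marker mean (orange), with the NK marker mean (purple) and without KO pools 1 and 2 (green); filled points have adjusted p under 0.05. Il18 stays near -2.20 in all 4 fits, while Il18r1 moves from 1.82 to 0.67, 0.30 and 0.94.

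The genes whose pattern was most like each IL-18 gene were ranked by Pearson's r over the 8 arrays among 18690 genes, as a description. For Il18 these were Ighg3, the IgG3 heavy chain constant gene, Snhg1, Lztfl1, Upb1 and B4galt6, each at 0.99 and each lower in KO. For Il18r1 they were Iqgap2 (0.997), the NK receptor genes Klrk1 and Klrc1 and the T cell receptor complex gene Cd3d (0.99 each), and the T cell factor gene Bcl11b (0.98). Klrk1, Klrc1, Cd3d and Bcl11b stood on the NK or T cell marker lists, and none of these 4 was called for genotype (limma, adjusted p = 0.053, 0.0959, 0.067 and 0.0892). For Il18rap they were Slx4ip (0.99), the kinase gene Prkch, Klrc1, the chemokine receptor gene Cxcr3 and Rflnb (0.98 each).

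With each genotype's mean removed, so that only the spread between pools counted, none of the 5 genes nearest Il18 was among its former 5. The genes nearest Il18r1 were then Lcp2 (0.998), which encodes the T cell adaptor SLP-76, Myo1f (0.997), the chemokine receptor gene Ccr2 (0.995), which is on the macrophage and monocyte list, Ms4a6b and Iqgap2 (0.99 each). Those nearest Il18rap were Cacnb4 (0.99), Slx4ip, Cxcr6 and Prkch (0.97 each) and Ctsw (0.96), which encodes a protease of cytotoxic lymphocytes. Those nearest Il18 were Aipl1 (0.98) and Itpka, Taar7b, Zc3h12a and Ppp2r2c (0.95 each), of which none was called for genotype. Between Il18 and Il18r1 Pearson's r went from -0.78 over all arrays to 0.13 with the genotype means removed.

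Il18 lies on chromosome 9 and the receptor chain genes Il1r2, Il1r1, Il1rl1, Il18r1 and Il18rap lie in 1 cluster on chromosome 1. Of the 3 nearest protein-coding genes on either side of Il18, Pts, an enzyme of tetrahydrobiopterin synthesis, was called, from 9.83 in control to 9.14 in KO (difference -0.69, SE 0.13, limma, adjusted p = 0.0154). Over all genes, 2.10% were called lower. Bco2, which lies between Pts and Il18, differed by -0.24 (adjusted p = 0.394) and Tex12, on the other side, by -0.72 (SE 0.24, limma, adjusted p = 0.158); Plet1, Sdhd and Timm8b were not called either. In the receptor cluster Il18r1 was the single called gene, where 1.49% of all genes were called higher. Il1rl2 differed by 0.09, and the flanking genes Map4k4, Gm3646, Slc9a4 and Slc9a2 by -0.24, -0.17, -0.04 and -0.22. The differences in the cluster were therefore largest for the neighbours Il18r1 and Il18rap.

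The remaining genes of the pathway were read from lists, beside a median difference of 0.02 over all genes. Of 11 other IL-1 family ligands and receptors, all measured, none was called in limma (0 also at an unadjusted p under 0.05), their median difference was -0.01, and 9 lay below the array median. Il1a and Il1b, the founding IL-1 ligands, differed by -0.25 and -0.16, Il1f8, an IL-36 ligand, by 0.17, and Il1rapl2 by -0.14. These genes were thus mostly dim in the sorted cells.

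Of 28 genes that carry the signal below the receptors, 25 were measured, 1 was called higher and 3 lower, against 1.49% and 2.10% of all genes; 16 of the 25 differences were above 0, with a median of 0.05. Peli1, a ubiquitin ligase of IRAK proteins, lay at 7.20, 7.04, 6.76 and 6.77 in KO and 6.31, 6.04, 6.46 and 6.08 in control, a rise of 0.72 (SE 0.13, limma, adjusted p = 0.0107). The kinase genes Ikbkb (IKKβ), Irak2 and Irak1 differed by -0.51, -0.48 and -0.41 (limma, adjusted p = 0.0106, 0.0123 and 0.0236), and their KO and control pools did not overlap, as for 10.5% of all genes. Irak1 lost its call when KO pool 1, 2 or 4 or control pool 2, 3 or 4 was left out (limma, adjusted p from 0.0561 to 0.0712). With the T cell marker mean in the fit the differences were 0.54 for Peli1 and -0.44, -0.47 and -0.42 for Ikbkb, Irak2 and Irak1, none of them called (limma, adjusted p from 0.107 to 0.134).

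Of 20 genes of inflammasomes and IL-1 family processing, 19 were measured and 3 were called lower, against 2.10% of all genes, and none higher; 6 of the 19 differences were above 0, with a median of -0.11. Pycard, which encodes the adaptor ASC that recruits caspase-1, lay at 6.64, 6.83, 6.80 and 6.96 in KO and 7.51, 7.17, 7.28 and 7.27 in control (difference -0.50, SE 0.10, limma, adjusted p = 0.0197). Naip6 and Naip5, sensors of bacterial flagellin in the NLRC4 inflammasome, differed by -0.93 (SE 0.14, limma, adjusted p = 0.00327) and -0.76 (SE 0.15, limma, adjusted p = 0.0158); they are close paralogs that their probes may not separate. Prtn3, a neutrophil protease, differed by 0.29 without a call. Leaving out KO pool 1 or control pool 3 ended the calls of Naip5 and Pycard, and leaving out KO pool 2 that of Pycard (limma, adjusted p from 0.0503 to 0.0567), and without KO pools 1 and 2 together only Naip6 was called of the 3 (-0.75, limma, adjusted p = 0.0265). With the T cell marker mean in the fit Naip5 and Pycard were not called (limma, adjusted p = 0.165 and 0.167), and with the NK marker mean none of the 3 was, Naip6 then differing by -0.73 (limma, adjusted p = 0.145).

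Of 14 genes of the IL-12 subunits and of the response to IL-12 and IL-18, all measured, 4 were called higher and none lower. Of all genes 1.49% were called higher. The 4 include Il12a, which encodes a subunit of the ligand and is not a response gene. Of the 14 differences 10 were above 0, with a median of 0.34. Il12a, the p35 subunit of IL-12, lay at 8.25, 7.94, 8.28 and 8.17 in KO and 6.05, 6.92, 6.34 and 6.76 in control, a difference of 1.64 (SE 0.17, limma, adjusted p = 0.000429). Stat4, the transcription factor of the IL-12 receptor, lay at 8.70, 8.57, 8.15 and 8.40 in KO and 7.79, 7.44, 7.53 and 7.33 in control (difference 0.93, SE 0.13, limma, adjusted p = 0.003). With the T cell marker mean in the fit Il12a and Stat4 differed by 1.72 and 0.68, and both were called (limma, adjusted p = 0.00502 and 0.033). Stat4 was not called with the NK marker mean (0.59, limma, adjusted p = 0.125).

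Ifngr1, the ligand-binding chain of the interferon-γ receptor, and Il2ra (CD25) were also higher, by 0.60 (SE 0.13, limma, adjusted p = 0.0268) and 0.75 (SE 0.18, limma, adjusted p = 0.0457). Their calls were less firm. That of Ifngr1 was lost without KO pool 1 or 2 or any 1 control pool, and that of Il2ra without any 1 pool other than KO pool 1 and control pool 2 (limma, adjusted p from 0.0605 to 0.123). With the T cell marker mean the differences were 0.34 for Ifngr1 and 0.87 for Il2ra, neither called (limma, adjusted p = 0.223 and 0.123).

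Of 7 transcription factor genes reported at the Il18 promoter, 6 were measured, none was called in limma (2 had an unadjusted p under 0.05), and their median was 0.11. Irf8 differed by 0.37 (adjusted p = 0.149, limma) and was called only without control pool 2 (0.49, adjusted p = 0.0242). Spi1, which encodes PU.1, differed by -0.29 (limma, adjusted p = 0.311), Bcl6 by 0.23 and Irf1 by 0.09.

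**Figure D4:**
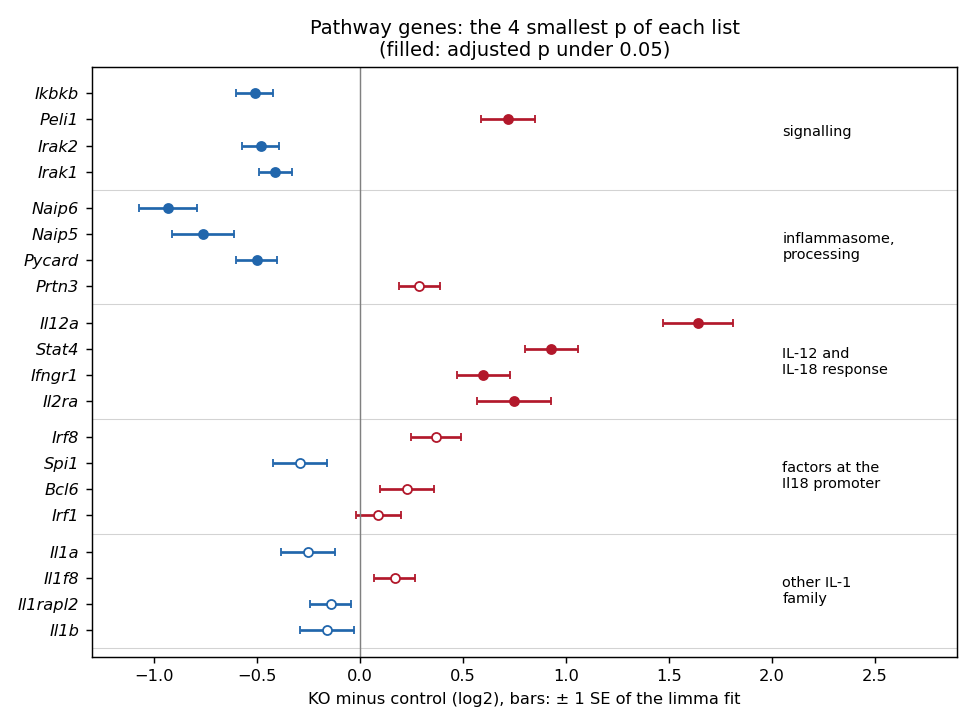
KO minus control on the log2 scale (horizontal axis, bars ± 1 SE of the limma fit) of the 4 genes with the smallest p in each of 5 pathway lists, red where the difference is above 0 and blue where it is below; filled points have adjusted p under 0.05. Il12a at 1.64 and Stat4 at 0.93 lie farthest to the right, and Naip6 at -0.93 farthest to the left.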

How the data were processed

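RNA of 4 KO and 4 control pools was measured on 8 arrays. The deposited values are log2 signals of 41345 probe sets, made by the authors with RMA in R 3.2.2, per the submitters' processing notes. RMA corrects background, gives the arrays a shared distribution and summarises probes into probe sets. The level of summary and the annotation's build are not stated in the sources used here. Of 25335 annotated probe sets 23521 had 1 gene symbol, and 1082 genes had several probe sets, of which the brightest was kept. RefSeq tables of GRCm38.p6 gave names (23328 probe sets matched), gene order and promoter sequences.

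Genotypes were compared with limma 3.58.1 in R 4.3.3 (lmFit, then eBayes with its default prior; two-sided; Benjamini-Hochberg over 22180 genes; threshold 0.05) on all 8 arrays with no covariate. Slope fits added 1 marker mean at a time. Errors are an SD over 4 pools or an SE of the fit. The labels call the pools biological replicates. Arrays have no read depth, so their number sets the precision. The fit was tested on simulated data. The members and lists were chosen with earlier results of these data known. Named were all members, Paxip1, at most the 4 genes with the smallest p of each pathway list, the 5 genes most like Il18, Il18r1 and Il18rap (predicted genes left out), and the neighbours of Il18 and of the receptor cluster. Marker genes named beside a result were chosen after their values were seen. Alternatives covered probe set choice, tested genes, scaling, variance prior, array weights, threshold, replicate block, marker covariates and left-out pools.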

Additional observations from a re-analysis of the deposited data

How the results depend on the processing

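The Il18 difference kept its direction and its call in all 21 alternatives run on it, from -2.25 to -2.16. The Il18r1 difference kept its direction in all 21 and its call in 9 of them. Its adjusted p was lowest with the replicate block (limma, adjusted p = 0.00558, SE 0.228 against 0.425 in the main fit). The difference was 1.82 without a call when all probe sets were tested (limma, adjusted p = 0.12). The same 1.82 had no call with an intensity trend and robust prior or without moderation of the variance (limma, adjusted p = 0.108 and 0.227). It was 0.30 with the NK marker mean and 0.94 without KO pools 1 and 2, and leaving out 1 pool at a time gave 1.47 to 2.21. The members called higher numbered 2 when dim genes were left out, when quantile normalization was repeated and at adjusted p under 0.10. They numbered 0 with all probe sets, with the intensity trend and robust prior, without moderation, with the NK marker mean and without KO pools 1 and 2, and 0 to 2 when 1 pool was left out. The members called lower numbered 2 with the replicate block and at adjusted p under 0.10; the member added by the block was Il18bp (-0.54, limma, adjusted p = 0.0379).

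Some differences near 0 changed sign. With the T cell mean, Il1r2 went to -0.10, Il1rn to 0.02 and Il33 to 0.19, and with the NK mean they went to -0.27, 0.05 and 0.26. Without KO pools 1 and 2, Il1rn was 0.01 and Il33 0.19, and Il33 ran from -0.14 to 0.06 when 1 pool was left out. The slope of Il18 on the T cell mean was -0.00222 after subtracting array medians and -0.06 with the replicate block, with -0.04 to 0.13 when 1 pool was left out; on the NK mean it was -0.06 with the block and -0.05 to 0.22 when 1 pool was left out. The Il18r1 slope on the T cell mean was called in 13 of 15 alternatives, chosen after the data were seen, but not with the replicate block (1.27) or without KO pools 1 and 2 (1.04); the NK slope likewise was not called with the block (1.81) or without those pools (1.48). The causes were not tested.

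Called genes over the whole array numbered 797 in the main fit. Fewer were called with all probe sets (403), without moderation (303), with the T cell mean (340) and with the NK mean (170). Without KO pools 1 and 2 there were 320, without KO pool 2 alone 498, and without control pool 2, 3 or 4 there were 530, 497 and 479. More were called when dim genes were left out (1008) and with the intensity trend and robust prior (1006). Repeated quantile normalization called 412 of 786 genes higher, against 331 of 797. Correlations between same-numbered pools were taken over genes after each genotype's mean was removed, and were 0.107, 0.0449, 0.0449 and 0.0363. On these deviations, 3 of 8 arrays correlated best with the pool of their own number in the other genotype. In both genotypes, pools 1 and 2 had higher T cell and NK marker means than pools 3 and 4. Whether same-numbered pools share more than a number was not tested beyond these values. With the replicate block 666 genes were called. The exact permutation test was not repeated. Genes below the array median have signals near background, which limits what their differences can show.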
